A study of Mus musculus with 36 samples.

Results

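The 10 genes described here encode CC chemokines that myeloid cells make: Ccl2, Ccl7, Ccl12, Ccl8, Ccl3, Ccl4, Ccl6, Ccl9, Ccl22 and Ccl24. They were taken by gene symbol from 3 expression tables that held 56026 gene models (bone marrow cells), 56575 (B16-F10 tumours) and 57252 (MC38 tumours), and all 10 were found in each table. The study sequenced RNA of wild-type mice from 4 populations. Granulocyte-macrophage progenitors (GMP), the precursors of neutrophils and monocytes, and monocytes themselves were taken from the marrow. Macrophages associated with tumours (TAM) were taken from B16-F10, a mouse melanoma line, and MC38, a mouse colon carcinoma line, grown as tumours. Each population had 3 libraries after each of 3 treatments, the saline control (PBS), OMV-SIRP and OMV-SIRP-G, which gives 12 groups and 36 libraries. OMV stands for outer membrane vesicle, a particle shed by bacteria, here in engineered form; the sources used here do not give what SIRP and G stand for, nor the dose, route, time of sampling, sorting gate or age of the mice. The design text speaks of 3 pooled samples per group. Since no source ties each library to its own mouse, the p-values cover the spread between these libraries alone, and that spread may be technical.

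CC chemokines are small secreted proteins named for an adjacent pair of cysteines, and they draw leukocytes by binding G protein-coupled receptors. Ccl2, Ccl7 and Ccl12 encode ligands of CCR2, the receptor by which monocytes leave the marrow and enter tissue. Ccl3, Ccl6 and Ccl9 encode ligands of CCR1, Ccl4 encodes an inflammatory chemokine related to that of Ccl3, and mouse CCL8 acts through CCR8. Ccl22 encodes a ligand of CCR4, a receptor of regulatory and type 2 helper T cells, and is made by dendritic cells and some macrophages, while Ccl24 encodes an eotaxin that acts through CCR3 on eosinophils.

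In the deposited tables, whose positions follow build GRCm38, 8 of the 10 genes lie in 2 clusters on chromosome 11. Ccl2 (82035571 to 82037453), Ccl7 (82045712 to 82047525), Ccl12 (82101845 to 82103400) and Ccl8 (82115185 to 82116799) lie on the plus strand within 81.2 kb. The other cluster starts 1456 kb further on and spans 91.8 kb, with Ccl9 (83572919 to 83578636), Ccl6 (83587882 to 83593087) and Ccl3 (83647844 to 83649355) on the minus strand and Ccl4 (83662584 to 83664683) on the plus strand. Ccl22 stands alone on chromosome 8 (94745590 to 94751699, plus strand) and Ccl24 on chromosome 5 (135569937 to 135573049, minus strand). The tables identify them as ENSMUSG00000035385 (Ccl2), ENSMUSG00000035373 (Ccl7), ENSMUSG00000035352 (Ccl12), ENSMUSG00000009185 (Ccl8), ENSMUSG00000019122 (Ccl9), ENSMUSG00000018927 (Ccl6), ENSMUSG00000000982 (Ccl3), ENSMUSG00000018930 (Ccl4), ENSMUSG00000031779 (Ccl22) and ENSMUSG00000004814 (Ccl24). A model on the opposite strand overlaps Ccl2 (Gm17268, 0 FPKM in every library) and another overlaps Ccl6 (E230016K23Rik, at most 2.37 FPKM); the sources used here do not say whether reads were counted by strand.

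RefSeq promoter sequences (GRCm38.p6) were at hand for 6 of the 10 genes. They are shown as a description. Genes of the same cluster moved together in some comparisons below and apart in others, and a link to the promoter letters was not tested. Each line gives the 150 bases that end just before the start site, or before the more upstream start where RefSeq and the deposited model differ (Ccl3 and Ccl22), in lower case with motif matches in capitals.
Ccl12: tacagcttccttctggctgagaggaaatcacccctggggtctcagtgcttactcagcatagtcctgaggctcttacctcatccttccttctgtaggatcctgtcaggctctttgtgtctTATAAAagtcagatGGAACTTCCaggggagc
Ccl8: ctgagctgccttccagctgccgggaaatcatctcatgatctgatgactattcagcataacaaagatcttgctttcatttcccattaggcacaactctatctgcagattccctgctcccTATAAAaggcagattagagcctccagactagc
Ccl9: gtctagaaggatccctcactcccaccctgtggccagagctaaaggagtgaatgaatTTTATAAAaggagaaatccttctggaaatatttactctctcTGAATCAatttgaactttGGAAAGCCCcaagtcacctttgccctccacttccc
Ccl6: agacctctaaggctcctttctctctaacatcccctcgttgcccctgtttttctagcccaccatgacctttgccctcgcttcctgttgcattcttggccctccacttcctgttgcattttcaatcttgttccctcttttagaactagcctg
Ccl3: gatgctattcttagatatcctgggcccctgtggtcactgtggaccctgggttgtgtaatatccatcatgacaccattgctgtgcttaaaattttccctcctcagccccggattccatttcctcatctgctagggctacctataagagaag
Ccl22: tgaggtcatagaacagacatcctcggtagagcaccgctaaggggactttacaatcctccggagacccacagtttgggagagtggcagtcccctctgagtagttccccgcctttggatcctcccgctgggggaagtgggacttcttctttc
The windows are chr11:82101695-82101844 (plus strand) for Ccl12, chr11:82115035-82115184 (plus) for Ccl8, chr11:83578637-83578786 (minus) for Ccl9, chr11:83593088-83593237 (minus) for Ccl6, chr11:83649379-83649528 (minus) for Ccl3 and chr8:94745440-94745589 (plus) for Ccl22. Both strands were searched for 5 sets of letters. GGNNNTTCC stood for a kB-like site and TGANTCA for the site of AP-1. TATAAA stood for the box near which many genes start. AAANNGAAA stood for an interferon response element-like site and TTCNNNGAA for a STAT-like site. Ccl12 holds TATAAA from 31 bases and GGNNNTTCC from 17 bases before the end of the window. Ccl8 holds TATAAA from 32 bases before it. Ccl9 holds TATAAA on both strands in overlapping letters from 94 and 92 bases, TGANTCA from 53 bases and GGNNNTTCC, on the minus strand, from 35 bases before the end. In the windows of Ccl6, Ccl3 and Ccl22 none of these 5 sets of letters occurs. Of 32851 RefSeq promoter windows of the same length, 10.3% hold the kB-like letters, 7.57% TATAAA, 4.24% TGANTCA, 5.17% AAANNGAAA and 4.09% TTCNNNGAA, and a match is a description of letters, not of a bound site.

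Levels are FPKM (fragments scaled to gene length and to library size), so genes can be compared within a table; the 3 tables were scaled apart, and levels across tables stand side by side with no test. Reads counted in genes numbered 13036567 to 19822660 per library, and a gene with no read is here at or under the worth of 3 reads, a limit that covers counting error only. Changes are differences of log2(FPKM + 1) ± SE from limma, which understate the change of low genes, and a gene is said to rise or fall only where its Benjamini-Hochberg adjusted p over all genes tested in the comparison was under 0.05. Replicate libraries correlated across genes at 0.98 to 0.989 in GMP and 0.929 to 0.976 in B16 TAM. In monocytes PBS 2 stood apart (0.925 and 0.928 with the other PBS libraries, which correlated at 0.988), and its neutrophil list was the highest of the PBS libraries (2922 to 7294 summed FPKM). MC38 libraries were the most uneven, at 0.81 to 0.95. Markers also bear on the labels. A list of 9 GMP and primary granule genes summed to 5469 to 6794 FPKM in GMP and 816 to 1849 in monocytes after PBS. In the same GMP libraries the neutrophil list was higher, at 27389 to 38875, and an eosinophil list was at 3773 to 4956. All 10 genes of a macrophage list were detected in B16 TAM (4939 to 5518 summed FPKM in PBS), beside melanocyte genes at 2909 to 3176. The MC38 PBS libraries, labelled as macrophages, had a macrophage list of only 67.6 to 174 summed FPKM with Mertk at 0 in all 3, against 1605 to 2287 after OMV-SIRP and 1360 to 1392 after OMV-SIRP-G. In such bulk samples fewer cells of a type and less RNA per cell cannot be told apart.

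In PBS, Ccl3 was the most abundant of the 10 genes in GMP, monocytes and MC38 TAM, and Ccl6 in B16 TAM. GMP had Ccl3 at 122, 131 and 130 FPKM, above Ccl9 (92.4 to 116), Ccl6 (70.4 to 87.7), Ccl4 (23.2 to 28.1), Ccl2 (2.95 to 4.02) and Ccl22 (1.19 to 1.85), and no 2 neighbours in that order overlapped. Ccl24 and Ccl7 were at 2 reads or fewer in each GMP library after PBS, and Ccl8 and Ccl12 had none. In monocytes Ccl3 (336 to 554 FPKM) was again above Ccl9 (189 to 272), followed by Ccl4 (111 to 221), Ccl6 (104 to 167) and Ccl2 (43.4 to 82.3); Ccl9, Ccl4 and Ccl6 overlapped their neighbours. Ccl24 (1.53 to 5.95 FPKM), Ccl7 (1.12 to 3.52) and Ccl12 (0.443 to 1.99) overlapped too, and Ccl22 was lowest among the detected genes at 0.0328 to 0.205. Ccl8 had no read in any of the 18 bone marrow libraries, which allows up to 0.369 FPKM in a GMP library and 0.448 in a monocyte library. Ccl8, Ccl12, Ccl7 and Ccl22 were all detected in every TAM library.

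B16 TAM after PBS had Ccl6 at 191, 218 and 209 FPKM. Below it Ccl8 (94.8 to 103 FPKM), Ccl7 (68.0 to 102), Ccl4 (78.6 to 97.2), Ccl12 (75.7 to 92.4), Ccl2 (72.3 to 87.0) and Ccl3 (68.1 to 77.5) each overlapped the next. Ccl9 (62.1 to 64.6) and Ccl22 (55.3 to 66.0) were lower than Ccl3 in every library and overlapped each other, and Ccl24 reached at most 0.943. MC38 TAM after PBS had Ccl3 (226 to 509 FPKM), Ccl2 (115 to 154) and Ccl4 (40.1 to 106) in an order without overlap. Ccl22 (30.6 to 66.2), Ccl7 (17.5 to 36.9), Ccl6 (11.3 to 48.2), Ccl8 (8.06 to 15.8), Ccl9 (8.99 to 15.4) and Ccl12 (1.46 to 13.5) then overlapped one another in turn, and Ccl24 had no read. The sum over the 10 genes was 973 ± 290 FPKM in monocytes against 348 ± 29.6 in GMP, and in the tables of the tumours it was 839 ± 40.1 in B16 TAM and 677 ± 225 in MC38 TAM (SD, n = 3 libraries each).

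**Figure D1:**
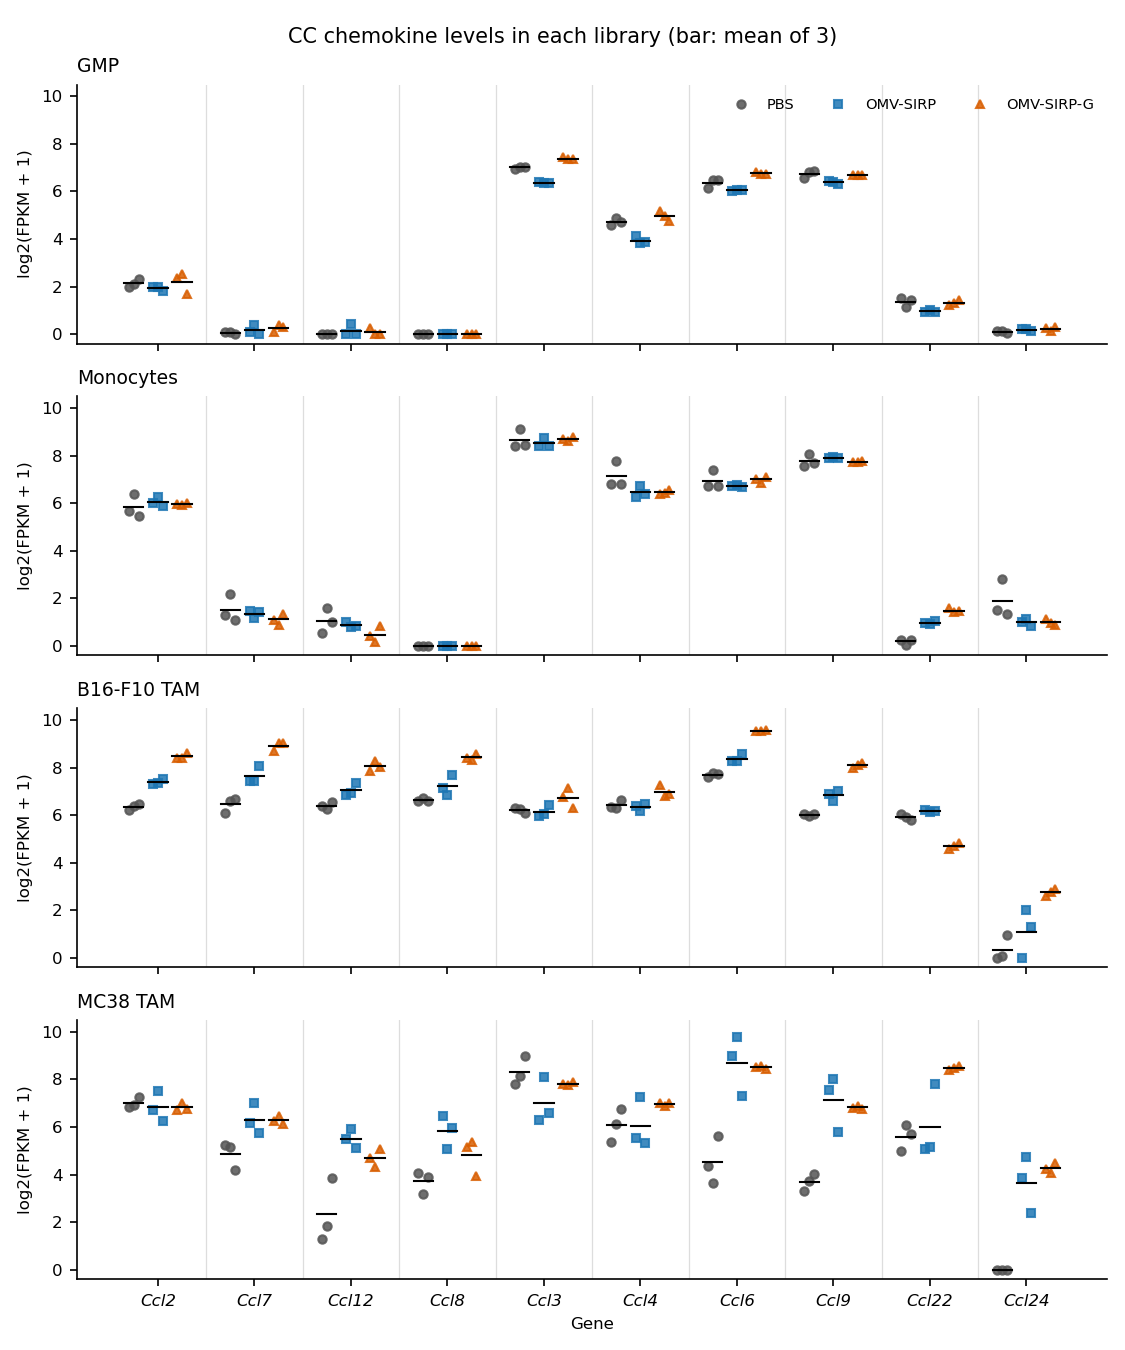
Level of each of the 10 genes in each of the 36 libraries as log2(FPKM + 1), with a panel for each population; gray circles are PBS, blue squares OMV-SIRP and orange triangles OMV-SIRP-G libraries, and a bar marks the mean of 3. Ccl8 sits at 0 in all GMP and monocyte libraries, most genes climb from PBS to OMV-SIRP-G in B16 TAM, and Ccl22 falls there while it climbs in MC38 TAM.

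In GMP, Ccl3 and Ccl6 fell after OMV-SIRP and rose after OMV-SIRP-G, while Ccl4, Ccl9 and Ccl22 fell after OMV-SIRP and were not called after OMV-SIRP-G. After OMV-SIRP 5 of the 6 genes tested fell and none rose, where 7.52% of all 12287 genes tested fell and 10.6% rose; the other 4 of the 10 genes did not pass the filter on low values. After OMV-SIRP-G, Ccl3 and Ccl6 rose over PBS and none of the 6 fell, where 6.76% of all genes rose and 5.22% fell. Against OMV-SIRP, 4 of the 6 were higher after OMV-SIRP-G and none lower, where 6.7% of all genes were higher and 8.12% lower. The median change of the 6 was -0.39, 0.15 and 0.54 in these 3 comparisons, beside 0.02, 0.00 and -0.01 for all genes tested.

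Ccl3, which encodes a CCR1 ligand, was at 122, 131 and 130 FPKM after PBS, at 82.8, 81.0 and 80.1 after OMV-SIRP and at 174, 162 and 162 after OMV-SIRP-G. The 3 groups did not overlap, with OMV-SIRP lowest and OMV-SIRP-G highest. Ccl3 fell with OMV-SIRP (-0.65 ± 0.05, adjusted p = 4.49e-05), rose with OMV-SIRP-G (0.38 ± 0.05, adjusted p = 0.00134) and was 1.02 ± 0.05 higher after OMV-SIRP-G than after OMV-SIRP (adjusted p = 9.38e-06). Ccl4, its neighbour on the chromosome, was at 23.2, 28.1 and 25.2 FPKM after PBS, at 16.4, 13.1 and 13.6 after OMV-SIRP, and at 35.5, 30.6 and 26.2 after OMV-SIRP-G. All OMV-SIRP libraries were under all others, while PBS and OMV-SIRP-G overlapped. Ccl4 fell with OMV-SIRP (-0.79 ± 0.12, adjusted p = 0.00267) and was higher after OMV-SIRP-G than after OMV-SIRP (1.04 ± 0.12, adjusted p = 0.00081), with no call for OMV-SIRP-G against PBS (0.26 ± 0.12, adjusted p = 0.229). These calls of Ccl3 and Ccl4 were kept in every alternative tried.

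Ccl6, a CCR1 ligand gene specific to rodents, was at 70.4, 87.3 and 87.7 FPKM after PBS, at 63.7, 66.3 and 65.9 after OMV-SIRP and at 111, 106 and 106 after OMV-SIRP-G. The groups did not overlap. Its rise with OMV-SIRP-G (0.40 ± 0.08 over PBS, adjusted p = 0.0116, and 0.71 ± 0.08 over OMV-SIRP, adjusted p = 0.000547) was kept in every alternative. Its fall with OMV-SIRP (-0.31 ± 0.08, adjusted p = 0.0255) was lost without PBS 2 or 3 or any of the OMV-SIRP libraries, with no filter and with the compared groups alone (adjusted p up to 0.0837). Ccl9, which adjoins Ccl6, was at 92.4, 113 and 116 FPKM after PBS, at 86.0, 82.5 and 79.2 after OMV-SIRP and at 102, 101 and 103 after OMV-SIRP-G, so that its OMV-SIRP-G libraries lay inside the PBS range. Ccl9 fell with OMV-SIRP (-0.37 ± 0.08, adjusted p = 0.0141), a call lost when OMV-SIRP 3 (adjusted p = 0.058) or PBS 2 (adjusted p = 0.0523) was left out. It was 0.30 ± 0.08 higher after OMV-SIRP-G than after OMV-SIRP (adjusted p = 0.0366), which was lost without any of these 6 libraries, with no filter and with the replicate block (adjusted p up to 0.123). Without PBS 1, Ccl9 was lower after OMV-SIRP-G than after PBS (-0.17, adjusted p = 0.0308).

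Ccl22 and Ccl2 were low in GMP. Ccl22, the CCR4 ligand gene, was at 1.85, 1.19 and 1.74 FPKM (49 to 81 reads) after PBS, at 0.921, 1.0 and 0.919 after OMV-SIRP and at 1.34, 1.48 and 1.70 after OMV-SIRP-G. It fell with OMV-SIRP (-0.41 ± 0.12, adjusted p = 0.0391), and this call was lost in 11 of 15 alternatives, among them the replicate block (adjusted p = 0.0596) and the omission of any library but PBS 2 (adjusted p up to 0.104). Higher Ccl22 after OMV-SIRP-G than after OMV-SIRP missed the threshold (0.36 ± 0.12, adjusted p = 0.0657) and passed it in 4 alternatives, without PBS 1 (adjusted p = 0.0471) or PBS 2 (0.0338), with total-read scaling (0.0468) and with the compared groups alone (0.0332). Ccl2, the CCR2 ligand gene, was between 2.21 and 4.69 FPKM in all 9 libraries with overlapping groups and no call; without OMV-SIRP-G 3 it was 0.50 higher after OMV-SIRP-G than after OMV-SIRP (adjusted p = 0.034). Ccl7, Ccl12 and Ccl24 had at most 5 reads in any GMP library.

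Other values moved with these results in GMP. A list of 10 neutrophil genes summed to 27389 to 38875 FPKM after PBS, 57377 to 59615 after OMV-SIRP and 36018 to 37228 after OMV-SIRP-G. The list of 8 eosinophil genes summed to 3773 to 4956, 2525 to 2824 and 2993 to 3095, and 10 immediate-early and heat-shock genes to 396 to 464, 408 to 425 and 653 to 700. Mast cell and basophil genes summed to 824 to 992, 472 to 495 and 638 to 677, and the sums had means of 48.5, 6.01 and 5.94 for erythroid genes and 26.9, 13.7 and 12.9 for B lineage genes. Macrophage genes summed to 207 to 231, 258 to 269 and 338 to 355, megakaryocyte and platelet genes to 36.1 to 41.0, 51.0 to 55.2 and 74.9 to 77.3, and dendritic cell genes to 7.31 to 7.86, 8.36 to 8.77 and 16.4 to 19.3. Their part in the chemokine changes was not tested.

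Monocytes had the highest bone marrow levels of most of these genes but few changes. Of the 9 genes tested only Ccl22 rose, with OMV-SIRP and with OMV-SIRP-G, and none fell. Ccl22 passed the filter on low values only through treated libraries, so it could be tested only because it was high there. Among all 12028 genes tested, 3.07% rose and 5.46% fell with OMV-SIRP, and 1.53% rose and 2.14% fell with OMV-SIRP-G. Between the 2 preparations limma called none of the 9, where 1.59% of all genes were higher and 0.848% lower after OMV-SIRP-G; at an unadjusted p under 0.05 it was 1 gene, Ccl22, and limma voom on the recovered reads called 0. The median change of the 9 was -0.16, -0.04 and 0.00, beside -0.03, -0.01 and 0.01 for all genes.

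Ccl22 was at 0.205, 0.0328 and 0.180 FPKM in monocytes after PBS, which is 8, 1 and 7 reads. It was at 0.927, 0.894 and 1.09 FPKM (36 to 43 reads) after OMV-SIRP and at 1.98, 1.67 and 1.74 (59 to 76 reads) after OMV-SIRP-G. The 3 groups did not overlap, although all levels were low beside those in the tumours. The rise was 0.79 ± 0.13 with OMV-SIRP (adjusted p = 0.00854) and 1.30 ± 0.13 with OMV-SIRP-G (adjusted p = 0.000905) on the log2(FPKM + 1) scale. On recovered reads, which do not shrink low genes in this way, voom gave 2.88 and 3.76. Against OMV-SIRP it was 0.51 ± 0.13 higher after OMV-SIRP-G (adjusted p = 0.0836), past the threshold without PBS 2 (adjusted p = 0.0181).

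For 8 of the other genes PBS 2 was the highest of the PBS libraries in monocytes, and the PBS values were spread widely. Ccl2 was at 49.6, 82.3 and 43.4 FPKM after PBS, 62.8, 75.8 and 57.3 after OMV-SIRP and 62.0, 60.2 and 63.4 after OMV-SIRP-G, so the groups overlapped. Without PBS 2 it was 0.47 higher after OMV-SIRP (adjusted p = 0.0141) and 0.41 higher after OMV-SIRP-G (adjusted p = 0.0487) than after PBS. Ccl9 was at 189, 272 and 205 FPKM after PBS and at 236, 243 and 239 after OMV-SIRP, and without PBS 2 it was 0.28 higher after OMV-SIRP (adjusted p = 0.00859). Ccl6 without PBS 2 was 0.29 higher after OMV-SIRP-G than after OMV-SIRP (adjusted p = 0.0217). Ccl4 was at 111, 221 and 113 FPKM after PBS, above all OMV-SIRP (75.6, 106 and 81.8) and OMV-SIRP-G libraries (82.1, 86.1 and 93.7), yet the differences were not called (-0.69 ± 0.26, adjusted p = 0.163, and -0.68 ± 0.26, adjusted p = 0.256). Ccl24 likewise lay higher in all PBS libraries (1.84, 5.95 and 1.53 FPKM) than in those after OMV-SIRP (0.773 to 1.17) or OMV-SIRP-G (0.847 to 1.17), with no call (-0.89 ± 0.34 in each, adjusted p = 0.16 and 0.256). Ccl3 ranged from 336 to 554 FPKM with no call, and Ccl7 (0.861 to 3.52 FPKM) and Ccl12 (0.117 to 1.99) had overlapping groups.

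The erythroid list of the monocyte libraries summed to 138 to 426 FPKM after PBS, 8.54 to 9.61 after OMV-SIRP and 17.1 to 21.5 after OMV-SIRP-G, and the GMP and primary granule list to 816 to 1849, 444 to 500 and 246 to 293. The eosinophil list was at 93.5 to 211, 24.7 to 28.8 and 42.7 to 54.5, the mast cell and basophil list at 27.9 to 58.0, 11.5 to 13.1 and 17.9 to 18.6, the T and NK cell list at means of 14.6, 3.57 and 3.28, and the immediate-early and heat-shock list at 1138 to 1373, 1637 to 1829 and 1907 to 1998. Their part was not tested. Ccl5, a CC chemokine gene outside the 10, went from 8.62, 18.6 and 8.04 FPKM in monocytes after PBS to 17.8, 21.9 and 24.0 after OMV-SIRP and to 341, 323 and 313 after OMV-SIRP-G, which is 4.77 ± 0.28 over PBS (adjusted p = 0.000106).

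B16 TAM showed the broadest change. With OMV-SIRP-G 8 of the 10 genes rose and Ccl22 fell, where 7.83% of all 12542 genes tested rose and 7.28% fell. With OMV-SIRP 4 of the 10 rose (Ccl2, Ccl7, Ccl6 and Ccl9) and none fell, where 0.885% of all genes rose and 0.566% fell. OMV-SIRP-G libraries were also above OMV-SIRP libraries for 8 of the 10 and below for Ccl22, where 6.35% of all genes were higher and 5.62% lower. Both counts of 8 include Ccl24, which could be tested only because it was high in treated libraries. The median change of the 10 was 0.68 with OMV-SIRP, 1.83 with OMV-SIRP-G and 1.12 between them, beside -0.01, -0.03 and -0.02 for all genes. The 2 comparisons with PBS share their PBS libraries, and each is given with its own values.

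The 3 CCR2 ligand genes rose together with OMV-SIRP-G. Ccl2 was at 72.3, 81.7 and 87.0 FPKM after PBS, 158, 164 and 185 after OMV-SIRP and 335, 338 and 391 after OMV-SIRP-G. The 3 groups stood apart in that order. Its change was 1.06 ± 0.11 with OMV-SIRP (adjusted p = 0.00117), 2.13 ± 0.11 with OMV-SIRP-G (adjusted p = 5.29e-06) and 1.06 ± 0.11 between them (adjusted p = 0.000342), or 4.41-fold in mean FPKM from PBS to OMV-SIRP-G. Ccl7 was at 68.0, 95.4 and 102 FPKM after PBS, 172, 174 and 270 after OMV-SIRP and 411, 520 and 528 after OMV-SIRP-G. Again no groups overlapped, and Ccl7 had the largest fold among the 9 genes with reads in all PBS libraries, 5.49-fold in mean FPKM (2.46 ± 0.21, adjusted p = 6.01e-05). Its rise with OMV-SIRP (1.19 ± 0.21, adjusted p = 0.0183) was lost without PBS 1 or PBS 2, with no filter and with the compared groups alone (adjusted p up to 0.0684). Ccl12 was at 81.4, 75.7 and 92.4 FPKM after PBS, 115, 122 and 164 after OMV-SIRP and 229, 307 and 261 after OMV-SIRP-G. All OMV-SIRP libraries were above all PBS libraries, but only OMV-SIRP-G passed the test (1.66 ± 0.16, adjusted p = 0.000102, against 0.66 ± 0.16, adjusted p = 0.0891, with OMV-SIRP).

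Ccl8, whose product acts through CCR8 in mice and whose gene closes the same cluster, followed the same order. It was at 94.8, 103 and 96.6 FPKM after PBS, 141, 114 and 208 after OMV-SIRP and 340, 317 and 378 after OMV-SIRP-G, with no overlap between groups. It rose with OMV-SIRP-G (1.80 ± 0.18, adjusted p = 0.000144) and its difference with OMV-SIRP was not called (0.60 ± 0.18, adjusted p = 0.226). The promoter windows of Ccl12 and Ccl8 hold TATAAA from 31 and 32 bases before their ends, while that of Ccl9 holds it from 94 and 92 bases and that of Ccl6 does not hold these letters. A link between these letters and the changes was not tested.

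Ccl6 and Ccl9 rose in parallel. Ccl6 was at 191, 218 and 209 FPKM after PBS, 313, 311 and 377 after OMV-SIRP and 739, 749 and 776 after OMV-SIRP-G, the highest level of any of the 10 genes in B16 TAM. Ccl9 was at 64.6, 62.1 and 64.5 FPKM, then 117, 94.8 and 129, then 253, 273 and 294. For both genes the 3 groups stood apart. Ccl6 changed by 0.69 ± 0.10 with OMV-SIRP (adjusted p = 0.00823) and 1.87 ± 0.10 with OMV-SIRP-G (adjusted p = 5.37e-06). Ccl9 changed by 0.81 ± 0.12 (adjusted p = 0.00823, but 0.0583 when OMV-SIRP 1 was left out and 0.0511 when PBS 2 was) and 2.08 ± 0.12 (adjusted p = 6.88e-06).

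Ccl3 and Ccl4, from the same cluster, changed less. Ccl3 was at 77.5, 74.6 and 68.1 FPKM after PBS, 61.8, 64.5 and 84.8 after OMV-SIRP and 107, 140 and 77.7 after OMV-SIRP-G. It was not called (0.52 ± 0.20 with OMV-SIRP-G, adjusted p = 0.114), except without OMV-SIRP-G 3 (0.73 over PBS, adjusted p = 0.0241, and 0.81 over OMV-SIRP, adjusted p = 0.0217). Ccl4 was at 79.7, 78.6 and 97.2 FPKM after PBS, 82.6, 71.3 and 86.8 after OMV-SIRP and 152, 112 and 116 after OMV-SIRP-G. Its rise with OMV-SIRP-G (0.56 ± 0.14, adjusted p = 0.0257) did not hold with no filter or when OMV-SIRP-G 1, PBS 1 or PBS 2 was left out (largest adjusted p = 0.0939), and its excess over OMV-SIRP (0.65 ± 0.14, adjusted p = 0.017) when OMV-SIRP-G 1 or OMV-SIRP 2 was left out (largest adjusted p = 0.0578). As a share of the summed FPKM of the 10 genes, Ccl3 went from 8.78% to 3.96% between PBS and OMV-SIRP-G.

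Ccl22 ran the other way. It was at 66.0, 59.1 and 55.3 FPKM after PBS, 72.7, 69.1 and 70.6 after OMV-SIRP and 22.5, 24.7 and 27.0 after OMV-SIRP-G. All OMV-SIRP-G libraries were below all others. It fell by 1.25 ± 0.11 against PBS (adjusted p = 7.9e-05) and by 1.48 ± 0.11 against OMV-SIRP (adjusted p = 6.57e-05), and both calls were kept in every alternative. Ccl24, the eotaxin gene, had 0, 1 and 19 reads after PBS (0, 0.0515 and 0.943 FPKM), 0, 60 and 25 after OMV-SIRP and 101, 118 and 117 after OMV-SIRP-G (5.13, 5.89 and 6.36 FPKM). Ccl24 passed the filter on low values only through treated libraries. It rose with OMV-SIRP-G over PBS (2.42 ± 0.46, adjusted p = 0.0057; 5.44 by voom). Its excess over OMV-SIRP (1.67 ± 0.46, adjusted p = 0.0405) was lost in 10 of 15 alternatives, among them pseudocount 0.1, voom and the omission of PBS 2, OMV-SIRP 1 or 3 or any OMV-SIRP-G library (adjusted p up to 0.171).

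The summed macrophage list of B16 TAM was 4939 to 5518 FPKM after PBS, 4363 to 6329 after OMV-SIRP and 9487 to 10034 after OMV-SIRP-G, a 1.88-fold rise of the mean from PBS to OMV-SIRP-G, where Ccl2, Ccl7, Ccl12, Ccl8, Ccl6 and Ccl9 rose 3.19-fold to 5.49-fold. With OMV-SIRP the mean of the list was 0.986 times that of PBS, where Ccl2 was at 2.10 times. The monocyte list climbed in the order of these chemokines, at 151 to 175, 199.7 to 204 and 452 to 472 FPKM (2.80-fold in the mean from PBS to OMV-SIRP-G). So did the megakaryocyte and platelet list, at 130 to 162, 259 to 449 and 760 to 884 (5.53-fold). The T and NK cell list was at 309 to 390, 118 to 140 and 121 to 147. The dendritic cell list, which holds none of the 10 genes, was at 257 to 282, 330 to 349 and 130 to 141 FPKM in the 3 groups, and its order is that of Ccl22. That order is not particular to this list. The mast cell and basophil list (means of 5.44, 8.86 and 0.156) and the fibroblast list (12.4, 19.3 and 6.97) had it too. So did the B lineage list (18.9, 21.5 and 14.6), the CC chemokine receptor list (135, 139 and 128) and the mitochondrially encoded genes. Melanocyte genes were at 2909 to 3176, 2390 to 2646 and 813 to 911, and erythroid genes at 16536 to 17907, 2221 to 3102 and 3235 to 3267. Mitochondrially encoded genes summed to means of 127851 FPKM after PBS, 146835 after OMV-SIRP and 100773 after OMV-SIRP-G. The part of these values in the changes was not tested.

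**Figure D2:**
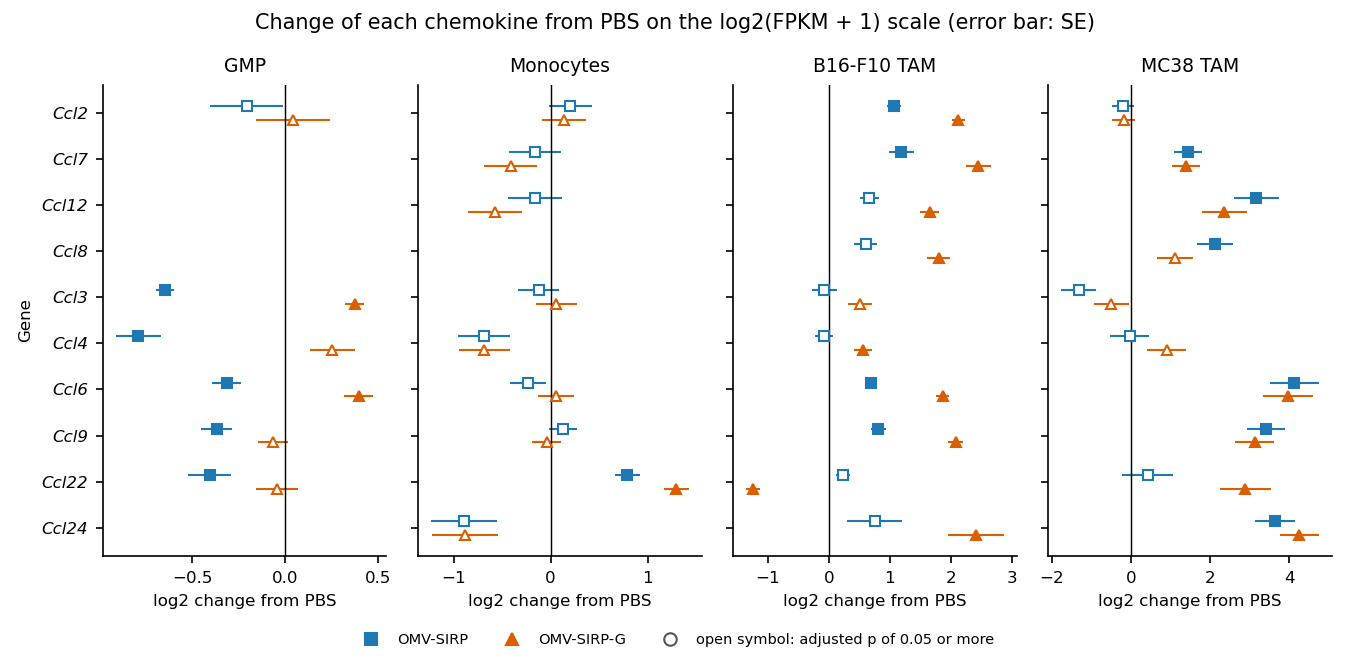
Change of each gene from PBS on the log2(FPKM + 1) scale in the 4 populations, with bars of 1 SE; blue squares are OMV-SIRP, orange triangles OMV-SIRP-G, filled where the limma adjusted p is under 0.05, and genes that did not pass the filter are absent. The axes of the panels differ. In GMP the filled squares lie left of 0 and the filled triangles right of it, and in B16 TAM all filled symbols but that of Ccl22 lie right of 0.

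In MC38 TAM 6 of the 10 genes rose with each preparation and none fell. With OMV-SIRP these were Ccl7, Ccl12, Ccl8, Ccl6, Ccl9 and Ccl24, where 7.4% of all 14089 genes tested rose and 3.49% fell. With OMV-SIRP-G they were Ccl7, Ccl12, Ccl6, Ccl9, Ccl24 and Ccl22, where 13.1% of all genes rose and 6.86% fell. Both counts of 6 include Ccl24, which had no read after PBS and could be tested only because it was high in treated libraries. Between the preparations limma called none of the 10, where 0.149% of all genes were higher and 0.234% lower after OMV-SIRP-G; at an unadjusted p under 0.05 it was 1 gene, Ccl22, and voom also called 1. The median change of the 10 was 1.78, 1.88 and -0.01, beside 0.03, 0.07 and 0.05 for all genes. Under scaling to total reads the median of all genes moves to -0.26, -0.08 and 0.21, so changes in MC38 TAM depend on the scaling by up to 0.29 on the log2 scale. In monocytes with OMV-SIRP it moves by 0.14, and elsewhere by less than 0.1.

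Ccl6 and Ccl9 changed most among the genes with reads in every library. Ccl6 was at 19.7, 11.3 and 48.2 FPKM after PBS, 499, 871 and 155 after OMV-SIRP and 370, 379 and 343 after OMV-SIRP-G. Every treated library was above every PBS library, and the OMV-SIRP libraries were far less even than the OMV-SIRP-G libraries. Ccl6 rose by 4.13 ± 0.62 with OMV-SIRP (adjusted p = 0.00524; 19.3-fold in mean FPKM) and by 3.97 ± 0.62 with OMV-SIRP-G (adjusted p = 0.00345; 13.8-fold). Without PBS 3 these folds were 32.7 and 23.4, and without OMV-SIRP 2 the first was 12.4; over all alternatives the log2 change with OMV-SIRP was 3.59 to 4.83. Ccl9 was at 8.99, 12.1 and 15.4 FPKM after PBS, 185, 261 and 53.8 after OMV-SIRP and 112, 118 and 107 after OMV-SIRP-G. It rose by 3.42 ± 0.49 (adjusted p = 0.00397) and 3.13 ± 0.49 (adjusted p = 0.0033). OMV-SIRP 3 was the lowest of its group for both genes.

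Of the CCR2 ligand genes, Ccl2 differed from Ccl7 and Ccl12. Ccl2 was at 115, 120 and 154 FPKM after PBS, 103, 181 and 75.5 after OMV-SIRP and 105, 127 and 108 after OMV-SIRP-G, with overlapping groups and no call (-0.19 ± 0.28 in each comparison with PBS, adjusted p = 0.695 and 0.688). An interval of 2 SE around these differences runs from -0.76 to 0.37 and from -0.75 to 0.38. Ccl7 was at 36.9, 35.0 and 17.5 FPKM after PBS, 71.9, 128 and 52.5 after OMV-SIRP and 75.3, 86.4 and 68.8 after OMV-SIRP-G, without overlap between PBS and either treatment. Its rise with OMV-SIRP (1.44 ± 0.35, adjusted p = 0.0339) was lost without any library other than OMV-SIRP 3 (adjusted p 0.052 to 0.0774), with no filter, with total-read scaling and with the compared groups alone (adjusted p up to 0.0974), and without both PBS 3 and OMV-SIRP 2 the rise was 0.76 and still called. The rise with OMV-SIRP-G (1.40 ± 0.35, adjusted p = 0.0239) was lost without PBS 3, without any OMV-SIRP-G library and with no filter (adjusted p up to 0.0842). Ccl12 was at 1.46, 2.59 and, in PBS 3, 13.5 FPKM after PBS, 44.4, 58.7 and 33.8 after OMV-SIRP and 24.9, 19.1 and 32.5 after OMV-SIRP-G. It rose by 3.18 ± 0.57 with OMV-SIRP (adjusted p = 0.0103) and by 2.37 ± 0.57 with OMV-SIRP-G (adjusted p = 0.0198), the latter lost with voom (adjusted p = 0.075) and when either of PBS 1 and PBS 2, or of OMV-SIRP-G 1 and 3, was left out.

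Ccl8 was at 15.8, 8.06 and 13.8 FPKM after PBS, 86.7, 32.9 and 61.7 after OMV-SIRP and 35.0, 40.3 and 14.3 after OMV-SIRP-G. It rose with OMV-SIRP (2.12 ± 0.45, adjusted p = 0.0204), which was lost with voom (adjusted p = 0.0851) and when OMV-SIRP 1 or PBS 2 was left out. Its difference with OMV-SIRP-G was not called (1.11 ± 0.45, adjusted p = 0.118), and the 2 preparations were not shown to differ (-1.01 ± 0.45, adjusted p = 0.426). Ccl24 had no read in any PBS library, and was at 13.3, 25.6 and 4.13 FPKM after OMV-SIRP (84 to 448 reads) and 18.03, 15.8 and 21.1 after OMV-SIRP-G (339 to 461 reads). It therefore passed the filter on low values only through treated libraries. Against 3 reads in a PBS library, 0.149 FPKM, its mean was at least 96.4-fold higher with OMV-SIRP and at least 123-fold higher with OMV-SIRP-G (limma adjusted p = 0.00348 and 0.00103). The first bound was 58.5-fold without OMV-SIRP 2, and for the lowest single libraries the bounds were 27.8-fold and 106-fold.

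Ccl3 and Ccl4 were not called in MC38 TAM. Ccl3 was at 226, 284 and 509 FPKM after PBS, 78.5, 273 and 96.1 after OMV-SIRP and 226, 215 and 236 after OMV-SIRP-G. With OMV-SIRP it differed by -1.32 ± 0.44 (adjusted p = 0.0887). The call was made by total-read scaling (-1.70, adjusted p = 0.0269), by voom (-1.32, adjusted p = 0.0456), without OMV-SIRP 2 (-1.87, adjusted p = 0.0109) and without both PBS 3 and OMV-SIRP 2 (-1.53, adjusted p = 0.00237). Ccl4 was at 40.1, 68.3 and 106 FPKM after PBS, 45.3, 153 and 39.3 after OMV-SIRP and 129, 118 and 129 after OMV-SIRP-G. Every OMV-SIRP-G library was above every PBS library, but the difference passed the threshold only without both PBS 3 and OMV-SIRP 2 (1.24, adjusted p = 0.00499, against 0.91 ± 0.50, adjusted p = 0.229, with all libraries). Without that pair Ccl3 and Ccl4 were also higher after OMV-SIRP-G than after OMV-SIRP (1.36 and 1.55, adjusted p = 0.0103 and 0.0159). In share of the summed FPKM, Ccl3 was 49.1% of the 10 genes after PBS, 10.8% after OMV-SIRP and 15.6% after OMV-SIRP-G, while Ccl6 was 3.68%, 35.3% and 25.1%.

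Ccl22 was at 30.6, 66.2 and 50.9 FPKM after PBS, 32.3, 34.5 and 222 after OMV-SIRP and 334, 359 and 373 after OMV-SIRP-G. The OMV-SIRP-G libraries were above all others, and OMV-SIRP 3 stood well above the other OMV-SIRP libraries. Ccl22 rose with OMV-SIRP-G over PBS (2.89 ± 0.64, adjusted p = 0.0142; 7.22-fold in mean FPKM), a call lost without PBS 1 or OMV-SIRP-G 3 (adjusted p = 0.0501 and 0.0505). Over OMV-SIRP it was 2.47 ± 0.64 higher (adjusted p = 0.173), which passed the threshold with voom (adjusted p = 0.0397) and without OMV-SIRP 3 (3.37, adjusted p = 0.00238). Its direction in MC38 TAM after OMV-SIRP-G was opposite to that in B16 TAM, and because the tables were scaled apart this difference was not tested.

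In MC38 TAM the dendritic cell list summed to 184, 245 and 246 FPKM after PBS, 123, 182 and 658 after OMV-SIRP and 1096, 1051 and 1151 after OMV-SIRP-G, and the library with the high Ccl22 among those after OMV-SIRP, OMV-SIRP 3, is the one with the high list. All 10 macrophage genes rose with each preparation, where 7.4% and 13.1% of all genes rose. The mean of the macrophage sum was 19.7-fold and 13.2-fold that of PBS, beside 19.3-fold and 13.8-fold for Ccl6 and 13.7-fold and 9.21-fold for Ccl9. For Ccl12, Ccl8 and Ccl7 the folds were 7.80 and 4.36, 4.81 and 2.38, and 2.82 and 2.58. For Ccl22, Ccl4, Ccl2 and Ccl3 they were 1.96 and 7.22, 1.11 and 1.75, 0.926 and 0.875, and 0.440 and 0.664. Over the OMV-SIRP libraries Ccl6 was at 499, 871 and 155 FPKM and the list at 2248, 2287 and 1605. Without PBS 3 the folds of the list were 29.6 and 19.8. The monocyte list was at 62.8 to 90.3 FPKM after PBS, 209.9 to 469 after OMV-SIRP and 283 to 295 after OMV-SIRP-G, the megakaryocyte and platelet list at 6.48 to 13.4, 116 to 173 and 117 to 135, the T and NK cell list at 116 to 283, 229 to 626 and 554 to 592, and the immediate-early and heat-shock list at 361 to 394, 799 to 1159 and 1225 to 1265. The neutrophil list was at 256 to 576 FPKM after PBS, 39.5 to 169 after OMV-SIRP and 35.1 to 53.8 after OMV-SIRP-G, with Ly6g at 0 in all 9 libraries. Mitochondrially encoded genes summed to 15906 to 27265 FPKM after PBS, 104650 to 174794 after OMV-SIRP and 39990 to 42550 after OMV-SIRP-G. The part of these values in the chemokine changes was not tested.

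**Figure D3:**
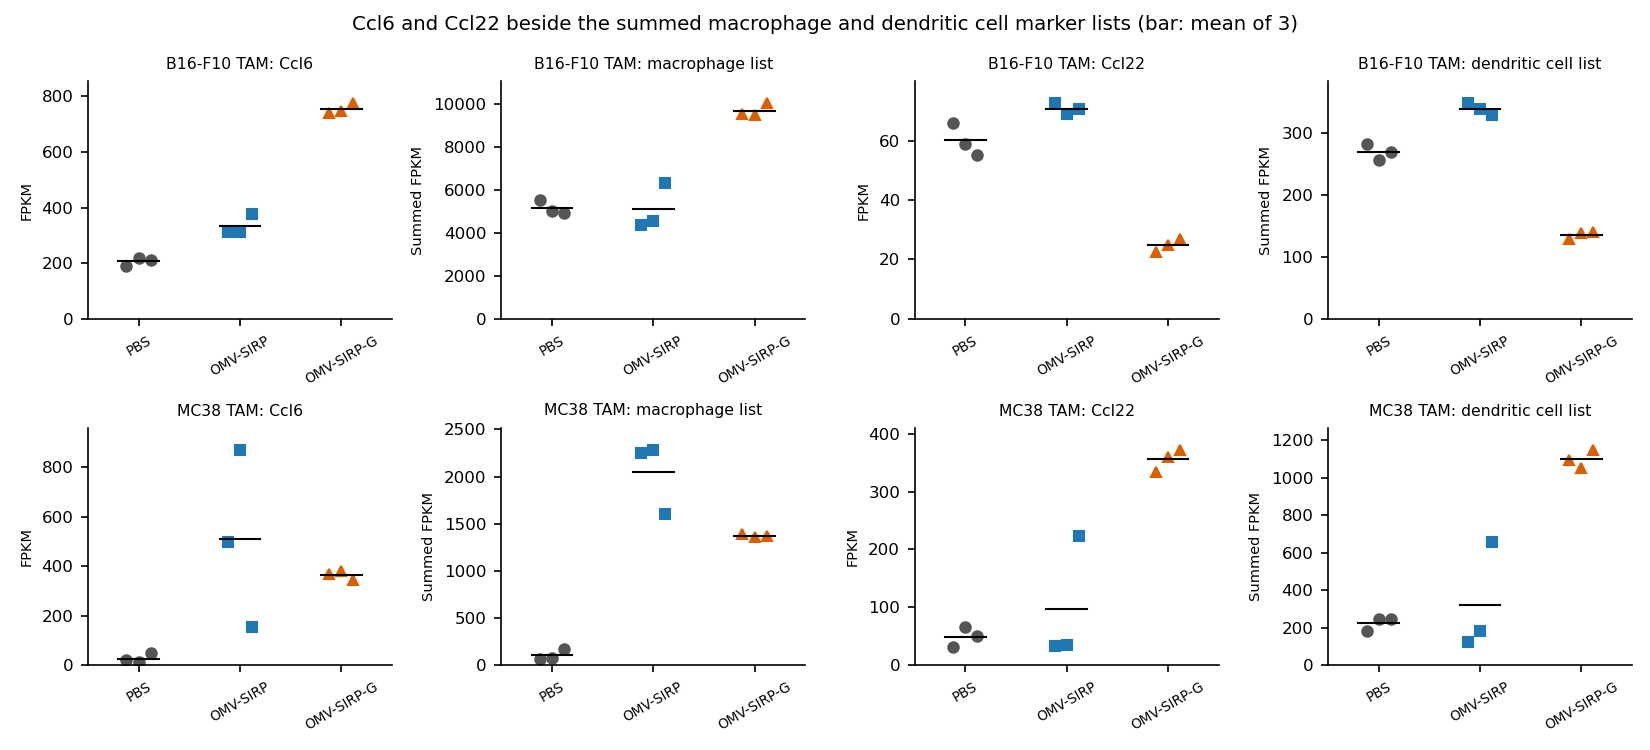
Ccl6 and Ccl22 (FPKM) beside the summed FPKM of the macrophage and dendritic cell lists in each TAM library, B16-F10 above and MC38 below, with a bar at the mean of 3 libraries. MC38 OMV-SIRP 3 stands above the other OMV-SIRP libraries in both Ccl22 (222 FPKM) and the dendritic cell list (658), and the B16 OMV-SIRP-G libraries are the lowest of that tumour in both.

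The mix of the 10 transcripts showed where each population differed. Ccl3, Ccl9 and Ccl6 made up most of the sum in the marrow, at 36.9%, 30.8% and 23.5% in GMP after PBS and 42.4%, 23.2% and 12.9% in monocytes. In B16 TAM no gene had a mean share above 24.6% after PBS, and the mean share of Ccl22 went from 7.20% to 0.901% with OMV-SIRP-G. In MC38 TAM Ccl22 went from 7.52% to 24.6% with OMV-SIRP-G. The summed FPKM of the 10 genes went from 839 ± 40.1 to 1332 ± 212 and 2745 ± 136 in B16 TAM, from 677 ± 225 to 1324 ± 629 and 1446 ± 28.1 in MC38 TAM, and from 348 ± 29.6 to 248 ± 5.38 and 412 ± 13.9 in GMP (PBS, OMV-SIRP and OMV-SIRP-G, SD, n = 3). In monocytes the sum was 973 ± 290, 871 ± 81.4 and 912 ± 44.5 in the same order of groups.

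**Figure D4:**
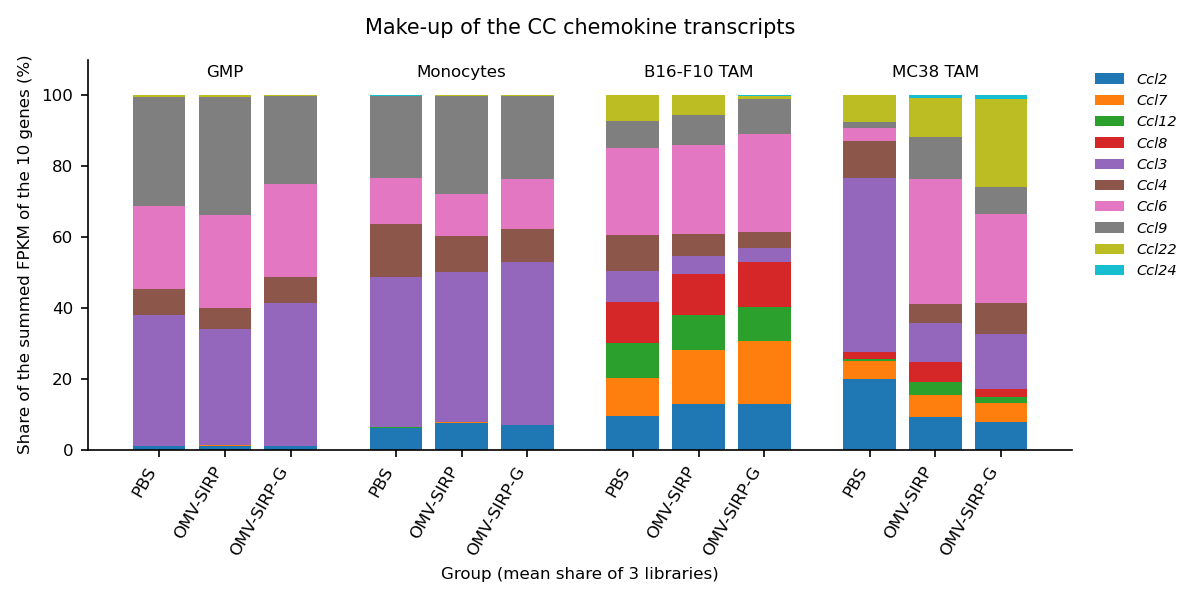
Mean share of each gene in the summed FPKM of the 10 genes, in percent, for the 12 groups (3 libraries each). Ccl3, Ccl9 and Ccl6 fill most of the bars of GMP and monocytes, and in MC38 TAM the Ccl3 share drops from 49.1% after PBS to 10.8% and 15.6% after the vesicles.

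Of the receptor genes, 14 were listed, of which 7 passed the filter in GMP, 6 in monocytes and also in B16 TAM, and 9 in MC38 TAM. In GMP 2 fell with OMV-SIRP, Ccr3, the eotaxin receptor gene, from 5.48 to 1.22 FPKM (-1.55 ± 0.08, adjusted p = 5.72e-06) and Ccr2 from 52.0 to 39.8 (-0.38 ± 0.05, adjusted p = 0.00145), and 3 rose with OMV-SIRP-G, among them Ccr7 and Ccr3; of all genes 7.52% fell with OMV-SIRP and 6.76% rose with OMV-SIRP-G. In monocytes 4 fell with OMV-SIRP, led by the atypical receptor gene Ccrl2, from 26.8 to 13.7 FPKM (-0.91 ± 0.11, adjusted p = 0.0027), where 5.46% of all genes fell. In B16 TAM 3 rose and 2 fell with OMV-SIRP-G, where 7.83% of all genes rose and 7.28% fell. Ccr1, a receptor gene for the products of Ccl3, Ccl6 and Ccl9, went from 8.09 to 29.5 FPKM (1.77 ± 0.19, adjusted p = 0.000189), and Ccr7, the receptor gene of migrating dendritic cells, from 88.4 to 43.0 (-1.02 ± 0.10, adjusted p = 0.000103). In MC38 TAM 4 rose with OMV-SIRP and 5 with OMV-SIRP-G, where 7.4% and 13.1% of all genes rose. Ccr2 there went from 2.90 FPKM to 33.7 and 28.4 (2.94 ± 0.48 and 2.95 ± 0.48, adjusted p = 0.00704 and 0.00395).

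Of 12 genes that act downstream of these receptors, all tested in each population, 5 rose in GMP with OMV-SIRP and 2 with OMV-SIRP-G, where 10.6% and 6.76% of all genes rose. In monocytes 0 and 1 rose (3.07% and 1.53% of all genes), in B16 TAM 0 and 3 (0.885% and 7.83%), and in MC38 TAM 7 and 8 (7.4% and 13.1%), and none fell in these comparisons with PBS. Rgs1, a regulator of G protein signalling, went from 7.14 to 42.1 and 45.6 FPKM in MC38 TAM, and from 3.42 to 8.49 in monocytes with OMV-SIRP-G (1.11 ± 0.13, adjusted p = 0.00202). Among 10 other CC ligand genes, 5 were tested in MC38 TAM, and 2 rose with OMV-SIRP and 3 with OMV-SIRP-G. One of these was Ccl17, which encodes the other ligand of CCR4, from 7.14 to 86.6 and 105 FPKM (4.13 ± 0.84 and 4.49 ± 0.84, adjusted p = 0.017 and 0.00712).

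Lists of genes often read beside chemokines are given by their calls against PBS, to be read against the shares of all genes that rose or fell: 10.6% and 7.52% in GMP, 3.07% and 5.46% in monocytes, 0.885% and 0.566% in B16 TAM and 7.4% and 3.49% in MC38 TAM with OMV-SIRP, and 6.76% and 5.22%, 1.53% and 2.14%, 7.83% and 7.28%, and 13.1% and 6.86% with OMV-SIRP-G. Differences between populations were not tested. Of the interferon response list, 1 of 19 genes rose and 13 fell in GMP with OMV-SIRP, and 3 rose and 9 fell with OMV-SIRP-G. In monocytes none of 19 rose, and 18 and 16 fell. In B16 TAM 1 of 20 rose with OMV-SIRP and 11 with OMV-SIRP-G, among them Oasl2 from 8.94 to 19.2 FPKM, and none fell. In MC38 TAM 1 of 20 rose with OMV-SIRP and none fell, and 5 rose and 3 fell with OMV-SIRP-G.

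Of the list of NF-kB pathway genes and targets, 4 of 21 rose and 4 fell in GMP with OMV-SIRP, and 9 rose and 4 fell with OMV-SIRP-G, among them Cxcl2 from 3.08 to 10.02 FPKM and Il1b from 2.61 to 14.1. In monocytes 1 of 22 rose and 5 fell with OMV-SIRP, and 2 rose and 3 fell with OMV-SIRP-G. Tnf there fell from 131 to 49.5 and 34.6 FPKM, while Il1b rose with OMV-SIRP-G from 45.3 to 150.2 (1.74 ± 0.20, adjusted p = 0.0022). In B16 TAM 1 of 21 rose and 2 fell with OMV-SIRP, and 4 rose and none fell with OMV-SIRP-G, among them Cd14 from 69.1 to 190.9 FPKM. In MC38 TAM 1 of 22 rose and 4 fell with OMV-SIRP, and 9 rose and none fell with OMV-SIRP-G, among them Zfp36 from 19.1 to 131 FPKM.

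Of the IL-4 and STAT6 response list, 5 of 11 rose and 1 fell in GMP with OMV-SIRP, and 6 rose and none fell with OMV-SIRP-G, among them Arg1 from 0.175 to 8.10 FPKM. In monocytes 2 of 12 rose and 2 fell with OMV-SIRP, and none rose and 2 fell with OMV-SIRP-G. In B16 TAM 4 of 14 rose with OMV-SIRP and 5 with OMV-SIRP-G, among them Mrc1 (26.6 to 127 FPKM), and none fell. In MC38 TAM 9 of 13 rose with OMV-SIRP and 12 with OMV-SIRP-G, among them Mrc1 (0.553 to 53.3 and 39.7 FPKM) and Chil3 (6.18 to 299.8 and 293), and none fell.

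The genes most like each chemokine were taken as those with the highest Pearson correlation of deviations from the population mean, over the libraries of all populations where the gene passed the filter. These libraries share treatments, and within a table they share the scaling, so the values are a description. The deviations were not scaled per population, so a population with larger changes weighs more. A likeness over all libraries need not hold within each population. Ccl6 was most like Ccl9 (0.966), Clec4a2 (0.964) and Lyz2 (0.963) over 36 libraries, and Ccl9 like Msr1, the scavenger receptor gene (0.972), Tgfbi (0.971) and Ctsc (0.969). Ccl12 was most like Aldh2 (0.951), Lgmn (0.940) and Apoe (0.925), Ccl7 like Rab7 (0.932), Plaur (0.923) and Ctsl (0.906), and Ccl24 like Itgam (0.936), Spp1 (0.932) and Ctsh (0.932), over 27 libraries without GMP. Ccl8 was most like Fcrls (0.882), Ecm1 (0.878) and S100a6 (0.874) over the 18 TAM libraries. Ccl22 was most like Tbc1d4 (0.921), Tmem123 (0.892) and Adora2a (0.889). The lowest values were those of Ccl2, with Saa3 (0.823), Slc35f6 (0.819) and Slc31a2 (0.817), of Ccl4, with Shisa5 (0.784), Zc3h12a (0.771) and Ms4a4c (0.758), and of Ccl3, with Ccl4 (0.682) and Dtx4 (0.667).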

How the data were processed

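RNA was extracted with TRIzol and made into libraries with a NEBNext mRNA kit, per the labels' protocols. The authors deposited FPKM in 3 tables with gene lengths; the submitters' processing notes name build GRCm38 and, with no role or setting, featureCounts 1.5.0-p3, HISAT2 2.0.5 and StringTie. Multiplied by gene length, at least 99.95% of the values of each library were whole multiples of what 1 read is worth (tolerance 0.05), so reads and depth (13036567 to 19822660) were recovered. The deposited FPKM carry a scaling between libraries of a table of 0.768 to 1.20.

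Log2(FPKM + 1) was fitted per population, over all 9 libraries, with lmFit and eBayes (trend, robust) of limma 3.58.1 (statmod 1.5.0, R 4.3.3). Genes that reached an FPKM of 1 in 3 or more libraries were tested, Benjamini-Hochberg adjusted over all genes in each comparison, at 0.05. The code was tested on simulated data. The 10 genes and the lists were chosen with earlier results of these data known. Genes outside the 10 were named as the up to 3 members of a pathway list with the lowest adjusted p in a comparison, the 3 most alike protein-coding genes, Ccl5, and cell type and quality genes where they move with a result; those lists are given as summed FPKM. Some genes that this rule names are not reported here.

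Alternatives were pseudocount 0.1, no filter, total-read scaling, limma voom on recovered reads, a fit of only the groups compared, a replicate block and leaving out each library; leaving out MC38 PBS 3 and OMV-SIRP 2 together was added after the data were seen. No replicate pair was a duplicate: chi-square per gene was at least 2.73. Promoters came from RefSeq (GRCm38.p6).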

Additional observations from a re-analysis of the deposited data

Results flagged for a closer look

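For 5 pairs of changes the groups compared did not overlap in a population and also not in its related one, and the changes had opposite signs. In each population the gene also had to reach an FPKM of 1 in a library of the groups compared. The related populations were GMP and monocytes, and B16 TAM and MC38 TAM. The pairs were picked by this rule from all the comparisons of the chemokines. The rule asks for no call, and no share of all genes that meet it is given here. The number of pairs is therefore not a result about these genes. None of the differences between populations was itself tested. Ccl22 after OMV-SIRP-G was lower than PBS in B16 TAM (-1.25) and higher in MC38 TAM (2.89), and against OMV-SIRP the changes were -1.48 and 2.47, the latter not called (adjusted p = 0.173). Ccl22 after OMV-SIRP was lower than PBS in GMP (-0.41) and higher in monocytes (0.79). Ccl12 after OMV-SIRP-G was higher than after OMV-SIRP in B16 TAM (0.99) and lower in MC38 TAM (-0.81). The latter was not called (limma adjusted p = 0.657). Ccl9 after OMV-SIRP-G was higher than after OMV-SIRP in GMP (0.30) and lower in monocytes (-0.17). The latter was not called (limma adjusted p = 0.721). All values are log2 changes of FPKM + 1.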

How the results depend on the processing

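Of 105 tests of the chemokines 47 passed the threshold. Of these, 33 kept the call in every alternative in which the gene was tested and 14 lost it in at least 1. The sign changed in 0. Among the 33 are the calls against PBS of Ccl22 in monocytes and of Ccl24 in B16 TAM and MC38 TAM. Both genes passed the filter on low values there only through treated libraries. The tally is not independent of that selection for these calls. The number called in GMP with OMV-SIRP fell from 5 to 3 with no filter and with the compared groups alone. In monocytes the compared groups alone gave 0 for OMV-SIRP against PBS, since Ccl22 then missed the filter, and 2 between the preparations. In MC38 TAM between the preparations voom gave 1 and leaving out PBS 3 and OMV-SIRP 2 gave 2. Leaving out each library gave 2 to 4 in GMP with OMV-SIRP, 1 to 3 and 1 to 2 in monocytes with OMV-SIRP and OMV-SIRP-G and 0 to 2 between them, 2 to 4 in B16 TAM with OMV-SIRP, and in MC38 TAM 3 to 6 with OMV-SIRP-G and 0 to 1 between the preparations.

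The replicate numbers were not shown to pair the libraries. Correlations of deviations of same-numbered libraries ran from -0.37 to 0.25, and in 0 of 12 comparisons did all pairs exceed 0.1. With 3 libraries per group this check cannot exclude pairing. With the replicate block 4, 2 and 3 genes were called in GMP (OMV-SIRP against PBS, OMV-SIRP-G against PBS and between preparations), 1, 1 and 0 in monocytes, 4, 9 and 9 in B16 TAM and 6, 6 and 0 in MC38 TAM.

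Changes of sign occurred only among differences that were not called in either setting. Total-read scaling gave Ccl3 0.052 (OMV-SIRP against PBS), Ccl9 0.045 (OMV-SIRP-G against PBS), Ccl4 -0.086 and Ccl24 -0.039 (between preparations) in monocytes, and Ccl6 0.029 and Ccl7 0.15 between preparations in MC38 TAM, where leaving out PBS 3 and OMV-SIRP 2 gave Ccl6 0.38, Ccl7 0.31 and Ccl9 0.17. Leaving out each library, ranges that crossed 0 were, in GMP with OMV-SIRP-G, Ccl2 -0.12 to 0.29 and Ccl22 -0.16 to 0.031. In monocytes they were Ccl3 -0.25 to 0.11 and Ccl7 -0.38 to 0.16 with OMV-SIRP, Ccl2 -0.047 to 0.41, Ccl3 -0.069 to 0.29, Ccl6 -0.056 to 0.28 and Ccl9 -0.15 to 0.11 with OMV-SIRP-G, and Ccl2 -0.16 to 0.043, Ccl4 -0.10 to 0.15 and Ccl24 -0.072 to 0.074 between preparations. In B16 TAM with OMV-SIRP they were Ccl3 -0.21 to 0.013 and Ccl4 -0.14 to 0.015. In MC38 TAM they were Ccl2 -0.54 to 0.089, Ccl4 -0.64 to 0.32 and Ccl22 -0.48 to 0.89 with OMV-SIRP, and Ccl2 -0.27 to 0.35, Ccl6 -0.86 to 0.38, Ccl7 -0.32 to 0.31, Ccl9 -0.96 to 0.17 and Ccl24 -0.020 to 1.17 between preparations. The cause of these shifts was not tested.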
